A study of Dugesia japonica with 19 samples.

Results

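Day 1 pieces of the planarian Dugesia japonica were set against day 0 pieces, tissue by tissue, to ask how m6A at single sites differed at the first sampled day of regeneration. The comparison takes 6 of the 19 libraries of the series: head, trunk and tail at day 1, and head, trunk and tail at day 0. A site is an ACA motif at a given position and strand of an assembled transcript contig. Over the 6 libraries 4212 sites on 2350 contigs were listed, of 5847 sites on 2882 contigs in the whole series. Of these, 213 sites were listed on both days in at least 2 tissues, and 56 of the 213, on 24 contigs, had at least 10 reads on both days in at least 2 tissues. Only tissues with such reads entered a site's comparison. These 56 are the sites that could be compared across tissues, 32 of them in all 3 tissues and 24 in 2.

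N6-methyladenosine (m6A) is the most common internal mark of messenger RNA. It is written by a methyltransferase complex built around METTL3 and METTL14, removed by demethylases and read by YTH-domain proteins, and it is known to affect splicing, export, translation and decay of transcripts. Planarians are freshwater flatworms that rebuild missing parts from pluripotent stem cells called neoblasts, and a cut piece first closes its wound, starts wound-response transcription and resets its head-to-tail polarity. In m6A-REF-seq the bacterial enzyme MazF cleaves RNA at ACA motifs, and a methylated motif resists the cut.

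Per the labels, each tissue library is MazF-treated poly(A)-enriched RNA from a pool of pieces of 10 to 20 cut animals, with 1 library per tissue and day on days 0, 1, 3, 5, 7 and 10. All groups share 1 control library, made by in vitro transcription (IVT) of RNA from intact animals, which carries no m6A. The day 1 group is head, trunk and tail at time point D1, and the day 0 group is head, trunk and tail at D0. No strain, sex or age entered the comparison, and the time between cutting and collection of the day 0 pieces is not stated. The only replication is across tissues, so p-values measure the spread between 3 tissue pairs of pooled pieces, not between animals.

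For each listed site the uncut share is the number of uncut reads over all reads, and the level is that share minus the uncut share of the IVT control. The control value of a site is fixed, so a site's difference between days is the same number for share and level. A site entered a library's list only with a level of at least 0.1 and with at least 11 uncut reads in the library or in the control. Of the 7320 listed values of the 6 libraries, 54.1% were listed through the control's reads, 52.3% had under 10 reads and 79.1% had no cut read. A site missing from a list had no value, and it was not taken as unmethylated. The contigs carry no gene names in the files, so the contigs are given by identifier, without the shared prefix TRINITY_, and no gene list could be matched to them.

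The number of listed sites differed between the days in opposite directions by tissue. Head libraries had 2749 listed sites at day 1 and 1790 at day 0. Trunk had 712 at day 1 and 468 at day 0. Tail had 447 at day 1 and 1154 at day 0. The log2 ratio of day 1 over day 0 came to 0.62 in head, 0.61 in trunk and -1.37 in tail, and its mean was -0.05 ± 1.14 (SD, n = 3 tissue pairs). An exact two-sided sign-flip permutation test over the 8 swaps of day within tissue gave p = 1, and the smallest p that 3 pairs allow is 0.25, so no library-level difference between these days could pass 0.05.

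The reads behind the lists moved the same way as the lists in each tissue. Reads at listed sites came to 328868 at day 1 and 138113 at day 0 in head, 180070 and 112555 in trunk, and 12642 and 46356 in tail. At sites listed on both days with at least 10 reads, the median ratio of reads at day 1 over day 0 was 1.59 in head and 1.58 in trunk, while tail had 0.342. The part of read depth in the gain and loss of sites was not tested. In pooled pieces, fewer cells of a type and less RNA per cell cannot be told apart.

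**Figure D1:**
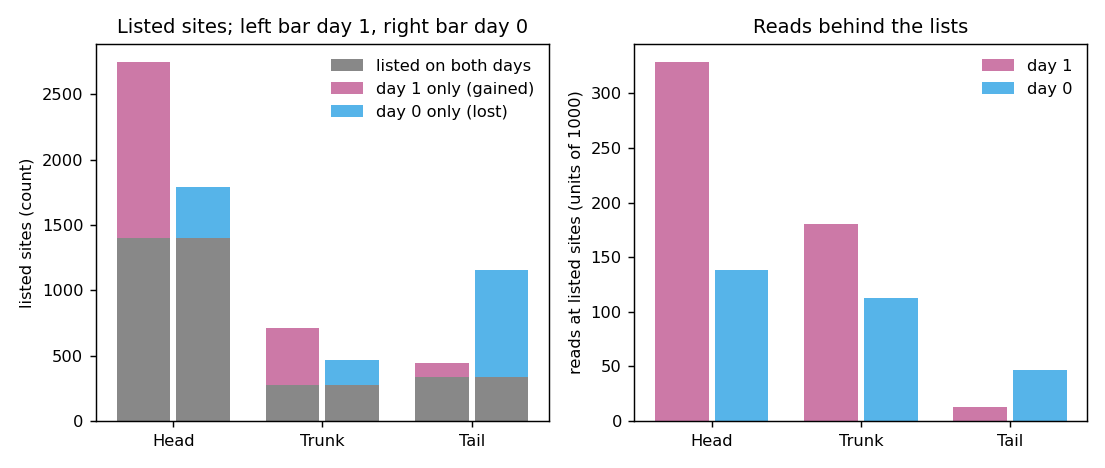
Left, the number of listed sites per tissue at day 1 (left bar) and day 0 (right bar), split into sites on both days, on day 1 only and on day 0 only. Right, reads at listed sites, with the day 1 bar left of the day 0 bar. Head and trunk had more sites and more reads at day 1 than at day 0, and tail had fewer of both.

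The Jaccard index of the lists of a tissue (sites on both over sites on either) was 0.446 for head, 0.307 for trunk and 0.268 for tail. In head 1400 sites were on both lists, which is 50.9% of the day 1 list and 78.2% of the day 0 list. In trunk 277 sites were on both, which is 38.9% of the day 1 list and 59.2% of the day 0 list. In tail 338 sites were on both, which is 75.6% of the day 1 list and 29.3% of the day 0 list. Both lists of a tissue hold the same shared sites, so the share not on the other day's list is larger for the longer list by construction.

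The typical level of a listed site differed little between the days. The median level was 0.231 at day 1 and 0.214 at day 0 in head, 0.25 at day 1 and 0.273 at day 0 in trunk, and 0.304 at day 1 and 0.303 at day 0 in tail. The mean of the 3 differences was -0.00171 ± 0.0199 (SD, n = 3; exact sign-flip permutation p = 1), with 0.0165 in head, -0.0229 in trunk and 0.00132 in tail. These medians were taken over lists of different sites. Over the sites on both lists of a tissue the differences were -0.00794 in head, -0.0111 in trunk and 0 in tail, so the sign in head depended on which sites were counted. Over all reads at listed sites, the uncut share was 79.5% at day 1 and 80.0% at day 0 in head, 97.0% and 95.9% in trunk, and 97.5% and 98.3% in tail.

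Within each tissue, most sites with at least 10 reads on both days had nearly the same uncut share on both. Such a site had to be listed on both days, so a site whose level was under 0.1 on either day is not counted here. The listing limit thus bounds how far these shares could differ, and this also holds for the sites compared across tissues. Over the 869 such sites of head the mean uncut share was 0.933 at day 1 and 0.941 at day 0. Over the 76 of trunk it was 0.924 at day 1 and 0.915 at day 0. Over the 57 of tail it was 0.976 at day 1 and 0.974 at day 0. The differences were -0.00794, 0.00909 and 0.00165, with a mean of 0.000933 ± 0.00854 (SD, n = 3; exact sign-flip permutation p = 0.75), so the mean difference was smaller than the spread between tissues. The sign in trunk and in tail depended on the read minimum, while head was lower at day 1 under each minimum. With no minimum the differences were -0.0111 in head, -0.00647 in trunk and 0.00258 in tail. A minimum of 50 reads gave -0.00453, 0.0139 and -0.00219.

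Sites without a cut read made up much of these sets. No read was cut on either day at 462 head sites (53.2%), 33 trunk sites (43.4%) and 30 tail sites (52.6%). Head had a cut read at day 1 only at 102 sites and at day 0 only at 38, while trunk had 4 and 4 and tail had 1 and 6. The deeper library of the pair had the larger of the unequal counts in head and in tail. A difference of at least 0.1 in uncut share was seen at 79 head sites, 27 higher and 52 lower at day 1, at 4 trunk sites, 3 higher and 1 lower, and at 1 tail site, which was higher.

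The 56 sites compared across tissues showed no difference between days that passed the test. With limma and tissue as a block, 0 of 56 sites were higher and 0 lower at day 1 at a Benjamini-Hochberg adjusted p of 0.05 (0% called in each direction), and at an unadjusted p of 0.05 there were 0 higher and 1 lower. A quasi-binomial model of the uncut and cut reads also called 0, with 3 higher and 5 lower at an unadjusted p of 0.05. At 12 of the 56 sites no read was cut on either day, so 44 sites on 18 contigs were fitted. Their fitted differences ran from -0.113 to 0.0795 with a median of 0.00339, and 36 of the 44 were under 0.05 in size.

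The precision of these fits varied between sites. The median standard error was 0.00954, and the median half-width of the 95% confidence interval was 0.0372, with a range of 0.0121 to 0.306. At 34 of the 44 sites the half-width was under 0.1. At the other 10 a common difference of 0.1 in uncut share could not be told from none with the 2 or 3 tissue pairs fitted. These intervals are not adjusted for the number of sites, so a narrow one does not mean that the adjusted test could call the site. DN19986_c0_g1_i8 position 180 had a half-width of 0.0315 and a limma adjusted p of 0.595.

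The direction of the difference varied between sites and tissues. Of the 56 sites, 7 were higher at day 1 in every tissue compared, 3 were lower in every one, and 21 were higher in one tissue and lower in another. A further 13 moved one way with at least 1 tissue equal, and 12 had no cut read. Among the sites with 1 direction in every tissue, only DN1290_c0_g1_i7 position 1045 was compared in 3 tissues. The others were compared in 2, where fewer tissues can disagree. The 24 contigs did not contribute equally, since DN678_c0_g2_i4, 5705 bases long, held 16 of the 56 sites and DN1290_c0_g1_i7, 3433 bases long, held 8. Sites of 1 contig share transcripts and often reads, so they are not independent. Positions 2266 and 2616 of DN678_c0_g2_i4, for example, had 2636 and 2639 reads in head at day 1.

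**Figure D2:**
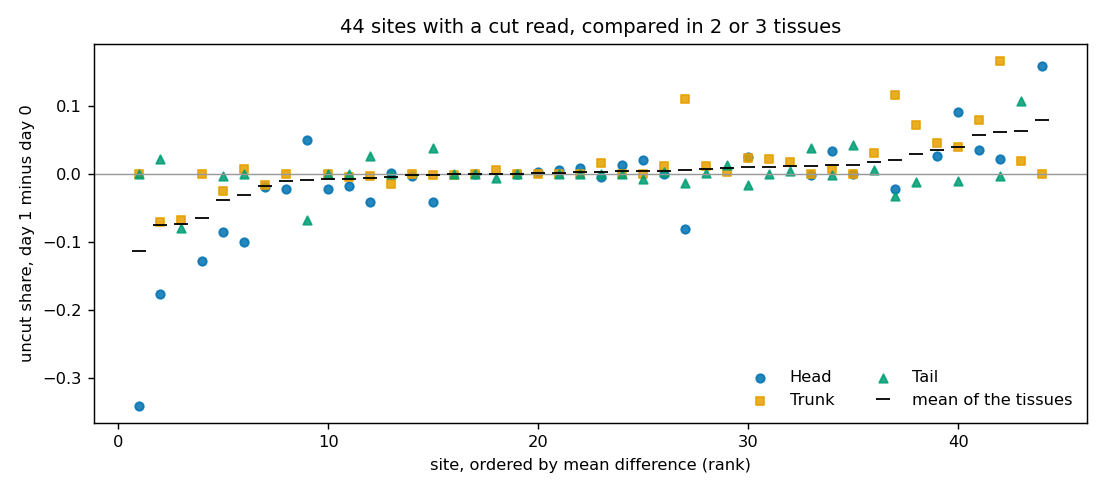
Difference in uncut share, day 1 minus day 0, in each tissue at the 44 sites with a cut read, ordered by the mean of their tissues (black dashes). Most points lie near 0, and at the leftmost site head differs by -0.340 while trunk and tail differ by 0.

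The 5 sites with the largest mean difference among those higher at day 1 in each tissue compared lay on 5 contigs. At DN1568_c0_g1_i6 position 2554 (minus strand) the uncut share was 0.756 at day 1 and 0.737 at day 0 in trunk, and 0.958 at day 1 and 0.851 at day 0 in tail (difference 0.0631, SE 0.0327, limma adjusted p = 0.906). Uncut reads there were 68 of 90 and 14 of 19 in trunk, and 23 of 24 and 137 of 161 in tail. At DN19986_c0_g1_i8 position 110 (plus strand) it was 0.693 at day 1 and 0.658 at day 0 in head, and 0.752 and 0.672 in trunk. DN10737_c0_g1_i1 position 3449 (plus strand) had 0.966 at day 1 and 0.939 at day 0 in head, and 1 and 0.955 in trunk. The trunk values were 22 of 22 reads uncut at day 1 and 21 of 22 at day 0, so they differed by 1 cut read. The remaining ones, DN1290_c0_g1_i7 position 1275 and DN155747_c0_g1_i1 position 232, both on the minus strand, had fitted differences of 0.0182 and 0.0114. None of the 5 passed the limma test.

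At 3 sites the share was lower at day 1 in each tissue compared. DN19986_c0_g1_i8 position 180 (plus strand) had the smallest limma p of the 56. Its uncut share was 0.872 at day 1 and 0.939 at day 0 in trunk, and 0.877 at day 1 and 0.956 at day 0 in tail, and it was not listed in head on either day (difference -0.0731, SE 0.00696, limma adjusted p = 0.595). On the later days its share stayed between 0.743 and 0.856 in trunk and between 0.855 and 0.932 in tail, below the day 0 value in every one of these 8 libraries. DN1290_c0_g1_i7 position 1045 (plus strand) had 0.798 at day 1 and 0.884 at day 0 in head, 0.920 and 0.945 in trunk, and 0.941 and 0.944 in tail (difference -0.0377, SE 0.0208). DN678_c0_g2_i4 position 4250 (minus strand) had 0.909 at day 1 and 0.929 at day 0 in head, and 0.984 and 1 in trunk, on 28 to 66 reads.

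Counting reads within a tissue gave a small set of sites at which the libraries of the 2 days differed. Fisher's exact test of uncut and cut reads, two-sided and adjusted over all sites of the tissue, called 12 of 869 sites in head, 5 higher at day 1 (0.575%) and 7 lower (0.806%). In trunk it called 9 of 76, 6 higher (7.89%) and 3 lower (3.95%). In tail it called 0 of 57 in either direction (0%), with 0 higher and 2 lower at an unadjusted p of 0.05. Each such test sets 1 library against 1 other, and its reads are PCR products without molecular identifiers, so the calls and the 95% Wilson intervals given with them cover counting error only.

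Called sites had more reads than the tested sites as a whole. The 12 head calls had a median of 8073.5 reads at day 1 and 2819.5 at day 0, against 41 and 24 over all head sites tested. The 9 trunk calls had a median of 3511 reads at day 1 and 2620 at day 0, against 84.5 and 46.5 over all tested. They comprised 18 distinct sites on 9 contigs, and all trunk calls lay on 3 contigs, DN678_c0_g2_i4 with 6, DN1290_c0_g1_i7 with 2 and DN19986_c0_g1_i8 with 1. The difference at a called site ran from 0.00193 to 0.340 in size in head and from 0.00806 to 0.207 in trunk.

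**Figure D3:**
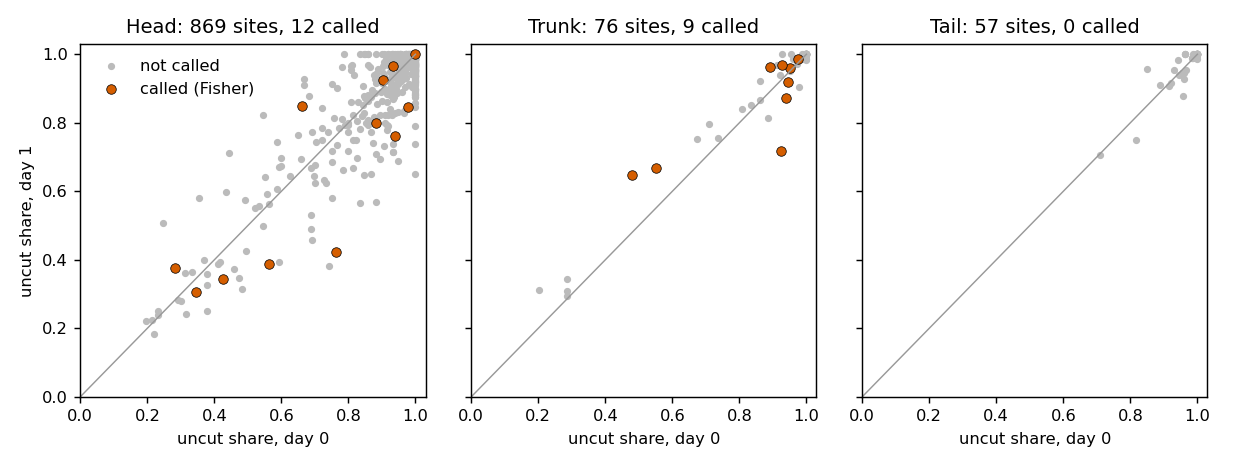
Uncut share at day 1 (vertical) against day 0 (horizontal) for sites with at least 10 reads on both days, 1 panel per tissue, with sites called by Fisher's exact test in orange. Most sites lie at the upper right near a share of 1, and the called sites lie on both sides of the diagonal in head and trunk.

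DN678_c0_g2_i4, the contig with the most reads in all 6 libraries, was called in both directions. At position 448 (minus strand; control share 0.122) the uncut share in head was 0.375 at day 1 (11769 of 31414 reads, 95% interval 0.369 to 0.380) and 0.284 at day 0 (3592 of 12649, 0.276 to 0.292). In trunk it was 0.968 at day 1 and 0.928 at day 0, and the tail shares were 0.944 at day 1 and 0.955 at day 0. The site was thus higher at day 1 in head and trunk by Fisher's exact test (adjusted p = 1.91e-71 and 1.19e-34), and tail lay slightly the other way on 180 and 641 reads. In head its share was 0.477, 0.532 and 0.466 on days 3, 5 and 7, above both early days, while trunk moved between 0.934 and 0.964 over days 3 to 10.

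Position 1596 of the same contig was higher at day 1 in both head and trunk by a smaller step. Its uncut share was 0.965 at day 1 and 0.931 at day 0 in head (Fisher's exact test, adjusted p = 2.15e-05), 0.959 and 0.951 in trunk (adjusted p = 0.0374), and 0.998 and 1 in tail. The head share was 0.963, 0.972 and 0.960 on days 3, 5 and 7 and 0.591 on day 10, on 88 reads. The trunk share was 0.976, 0.986, 0.993 and 0.996 on days 3, 5, 7 and 10. Tail had cut reads there at day 1 only, 1 of 641, among all 6 days.

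Other sites of this contig were called in 1 tissue alone. Position 3263 was called in head, at 0.305 at day 1 and 0.346 at day 0 (Fisher's exact test, adjusted p = 0.000135). Trunk had 0.985 at day 1 and 0.988 at day 0 there, and tail 0.955 and 0.929. The sites that follow were called in trunk. At position 3538 (control share 0.0265) trunk had an uncut share of 0.647 at day 1 (2271 of 3511 reads, 0.631 to 0.662) and 0.481 at day 0 (1260 of 2620, 0.462 to 0.50; Fisher's exact test, adjusted p = 5.31e-37). Head had 0.556 at day 1 and 0.534 at day 0 at that site, and tail 0.707 and 0.710. At position 570 trunk had 0.963 at day 1 and 0.891 at day 0, and its later shares of 0.894 to 0.920 were nearer to the day 0 value. At position 4212 trunk had 0.717 at day 1 (71 of 99 reads, 0.622 to 0.796) and 0.925 at day 0 (49 of 53, 0.821 to 0.970), a lower share at day 1 (Fisher's exact test, adjusted p = 0.0330). That site's trunk share was between 0.979 and 0.997 on days 3 to 10, on 1847 to 17044 reads.

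Fisher's exact test called 1 site of DN1290_c0_g1_i7 lower and 1 higher at day 1. Position 1045, described above, was the only site called lower in 2 tissues, with an adjusted p of 1.04e-68 in head and 0.0374 in trunk by Fisher's exact test. In head the share was 0.902, 0.812, 0.891 and 0.876 on days 3, 5, 7 and 10, so its day 1 value was the lowest of the 6 head libraries and its day 5 value came next. At position 1951 (minus strand; control share 0.116) trunk had 0.669 at day 1 (553 of 827 reads, 0.636 to 0.700) and 0.552 at day 0 (536 of 971, 0.521 to 0.583; Fisher's exact test, adjusted p = 7.10e-06). Its trunk share was 0.774, 0.909, 0.857 and 0.944 on days 3, 5, 7 and 10. At the same site head had 0.280 at day 1 and 0.301 at day 0, and tail 0.928 and 0.959, so both lay slightly the other way.

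Of the 3 sites called in 2 tissues, all 3 had the same direction in both. DN678_c0_g2_i4 positions 448 and 1596 were higher and DN1290_c0_g1_i7 position 1045 was lower, in head and in trunk. In tail each of the 3 was lower at day 1, with differences of -0.0103, -0.00156 and -0.00302, and none of these passed the test.

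**Figure D4:**
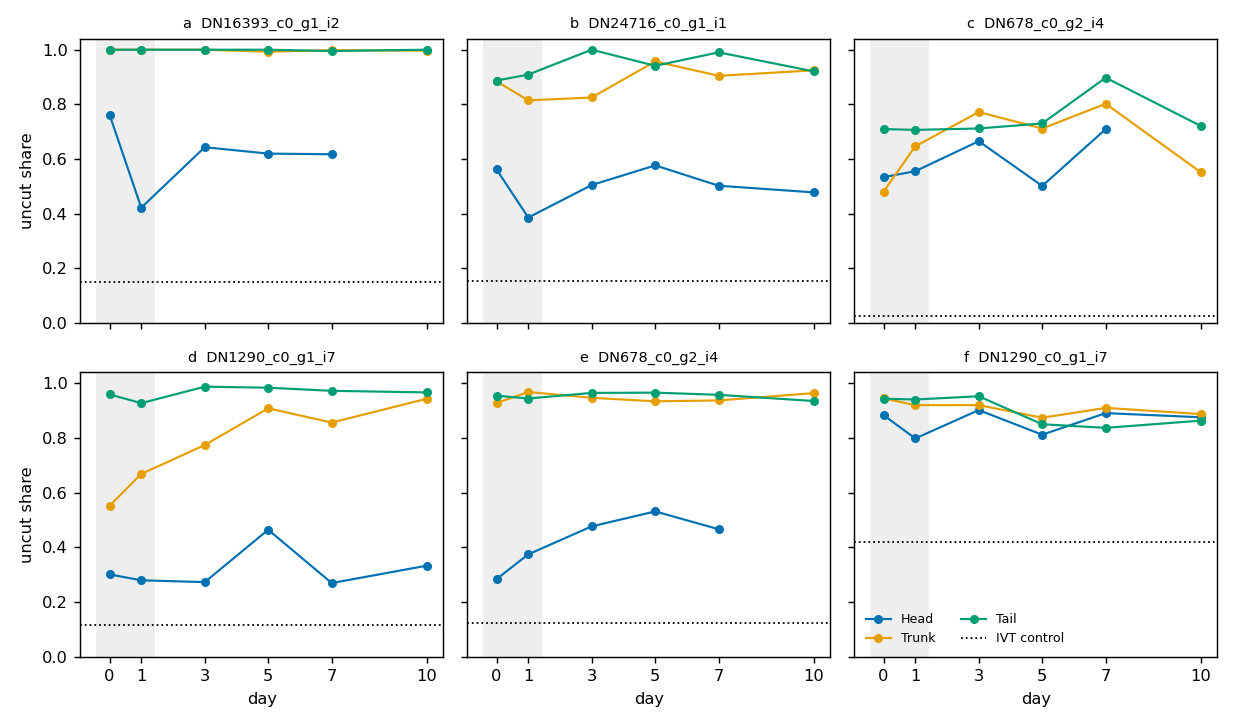
Uncut share (vertical) by day (horizontal) in head, trunk and tail at the 6 called sites with the largest differences among those with at least 10 reads in all 6 libraries, with days 0 and 1 shaded and the IVT control share dotted; libraries with under 10 reads are left out. Panel a is DN16393_c0_g1_i2 position 820, b is DN24716_c0_g1_i1 position 153, c is DN678_c0_g2_i4 position 3538, d is DN1290_c0_g1_i7 position 1951, e is DN678_c0_g2_i4 position 448 and f is DN1290_c0_g1_i7 position 1045. In a, b, d and e the head share lies below trunk and tail on every day shown, and the head dips in a and b are at day 1.

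Of the 12 head calls, 5 moved by at least 0.1, 4 of them lower and 1 higher at day 1, and all 5 lay on other contigs. At DN16393_c0_g1_i2 position 820 (minus strand) head had an uncut share of 0.422 at day 1 (147 of 348 reads, 0.372 to 0.475) and 0.763 at day 0 (135 of 177, 0.695 to 0.819; Fisher's exact test, adjusted p = 1.17e-11). Trunk and tail had no cut read there on either day. In head the share was 0.644, 0.620 and 0.618 on days 3, 5 and 7, between the day 1 and day 0 values. On day 10 the head share was 1, on 5 reads.

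At DN24716_c0_g1_i1 position 153 (plus strand) head had 0.386 at day 1 (398 of 1030 reads, 0.357 to 0.417) and 0.562 at day 0 (361 of 642, 0.524 to 0.600; Fisher's exact test, adjusted p = 3.99e-10). Trunk had 0.815 at day 1 and 0.885 at day 0, and tail 0.909 and 0.887. Later head shares were 0.505, 0.577, 0.503 and 0.478 on days 3, 5, 7 and 10, so the day 1 value was the lowest of the 6. DN13840_c1_g1_i1 position 646 (minus strand) had 0.760 at day 1 (225 of 296 reads, 0.708 to 0.805) and 0.940 at day 0 (628 of 668, 0.919 to 0.956) in head, with later shares of 0.894, 0.814, 0.910 and 1. The last of these, on day 10, was on 11 reads.

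The head site that was higher at day 1 by such a step was DN1021_c0_g1_i1 position 314 (minus strand), with 0.849 at day 1 (180 of 212 reads, 0.795 to 0.891) and 0.661 at day 0 (166 of 251, 0.601 to 0.717; Fisher's exact test, adjusted p = 0.000266). Its head shares were 0.832, 0.764, 0.833 and 0.640 on days 3, 5, 7 and 10. The call with the most reads, named after its values were seen, was DN155747_c0_g1_i1 position 339, with 0.345 at day 1 and 0.426 at day 0 in head on 38242 and 14455 reads. Trunk at that site lay the other way, at 0.313 at day 1 and 0.202 at day 0 on 243 and 84 reads, and did not pass the test.

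Sites that appeared or disappeared in several tissues were few and thinly read. Listed at day 1 and not at day 0 in at least 2 tissues were 59 sites on 52 contigs. Listed at day 0 and not at day 1 were 96 sites on 83 contigs. In at least 1 tissue, 1833 sites were gained and 1296 were lost, of the 4212 sites of both days. The difference of -37 did not stand apart from the 8 swaps of day within tissue (exact two-sided permutation p = 1, smallest possible 0.25). Of the 59 gained sites, 35 were gained in head and trunk alone, 12 in head and tail alone, 11 in trunk and tail alone and 1 in all 3. Of the 96 lost sites, 7 were lost in head and trunk alone, 38 in head and tail alone, 46 in trunk and tail alone and 5 in all 3. The part of list length in these counts was not tested. In all, 200 sites were gained in one tissue and lost in another, some of them among the sites above. Of the 200, 93 were gained in trunk and lost in tail.

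Reads behind these sites summed to a median of 5 over the tissues concerned, for gained and for lost sites alike. The single site gained in all 3 tissues, DN11221_c0_g6_i1 position 1679 (minus strand), had 2, 2 and 3 reads at day 1 in head, trunk and tail, none of them cut, and a control share of 0.882. The 5 sites lost in all 3 tissues were DN73944_c0_g1_i2 position 358, DN16393_c0_g1_i2 position 1024, DN6100_c0_g2_i1 position 3530, DN6695_c0_g1_i2 position 445 and DN1816_c0_g1_i3 position 544. Their reads at day 0 summed to between 5 and 55. DN73944_c0_g1_i2 position 358 had 53 of the 55 reads in head, where its level of 0.105 lay just inside the listing limit of 0.1.

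Most of these sites were listed again later. Of the 59 gained sites 58, and of the 96 lost sites 94, were on at least 1 of the 12 lists of days 3 to 10, with a median of 5 lists each. A list of any tissue counts here, and no rate over all sites is set beside these counts. DN16393_c0_g1_i2 position 1024 was on all 12. DN2215_c0_g1_i7 position 1945 (plus strand), gained in head and in trunk, had 111 reads at day 1 in head, 110 of them uncut, and 57, 35 and 1 reads in head on its later lists. In trunk it had 2 reads at day 1, and tail listed it at day 0, on 1 read, and not at day 1.

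At least 10 reads in every tissue concerned were behind 5 gained and 2 lost sites, named here after their values were seen. DN5195_c0_g1_i2 position 672 (minus strand) had 17 of 40 reads uncut in head and 11 of 11 in trunk at day 1, with 1 of 23 uncut in the control. DN5749_c0_g1_i1 position 1432 had 19 of 31 reads uncut in head and 13 of 14 in trunk, with 9 of 39 in the control. The other 3 gained sites were DN5122_c0_g1_i4 positions 2884 and 2971 and DN3976_c0_g1_i1 position 251, all in head and trunk, with controls of at most 8 reads. The 2 lost sites, DN141_c1_g1_i11 position 1679 and DN6582_c0_g1_i1 position 742, were lost in trunk and tail and had control shares of 0.0232 and 0.0157. DN6582_c0_g1_i1 position 742 had 11 of 15 reads uncut in trunk and 15 of 15 in tail at day 0, and it was listed in 6 of the 12 later libraries.

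The contigs with the most such sites held 3 each at most. DN11221_c0_g6_i1 and DN453_c0_g1_i8 had 3 gained sites each and DN5122_c0_g1_i4 had 2. DN4461_c0_g2_i2 had 3 lost sites, and DN192_c0_g3_i3 and DN6100_c0_g2_i1 had 2 each. Their summed reads were 9 to 76 for the gained and 6 to 48 for the lost.

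The later history of sites differed between those on both lists and those on one. In head, 49.1% of sites gained at day 1 and 34.1% of those lost were on no head list of days 3 to 10, against 5.64% of those on both early lists. In trunk the shares were 20.7%, 35.6% and 3.61%, and in tail 21.1%, 18.8% and 0.888%. Sites on both early lists also had more reads, with a median of 24 at day 1 in head against 14 for gained sites, and 7 against 1 in trunk. Among gained head sites, 452 of 960 with at least 10 reads were on a later head list, against 235 of 389 with under 10. Gained trunk sites lay the other way, at 30 of 32 against 315 of 403. So did lost sites, at 113 of 157 against 144 of 233 in head and 40 of 42 against 623 of 774 in tail. Lost trunk and gained tail sites had only 4 and 1 with at least 10 reads. Under 11 uncut control reads were behind 65.4% of gained head sites and 35.6% of those on both lists. The part of reads or control in the contrast between sets was not tested.

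**Figure D5:**
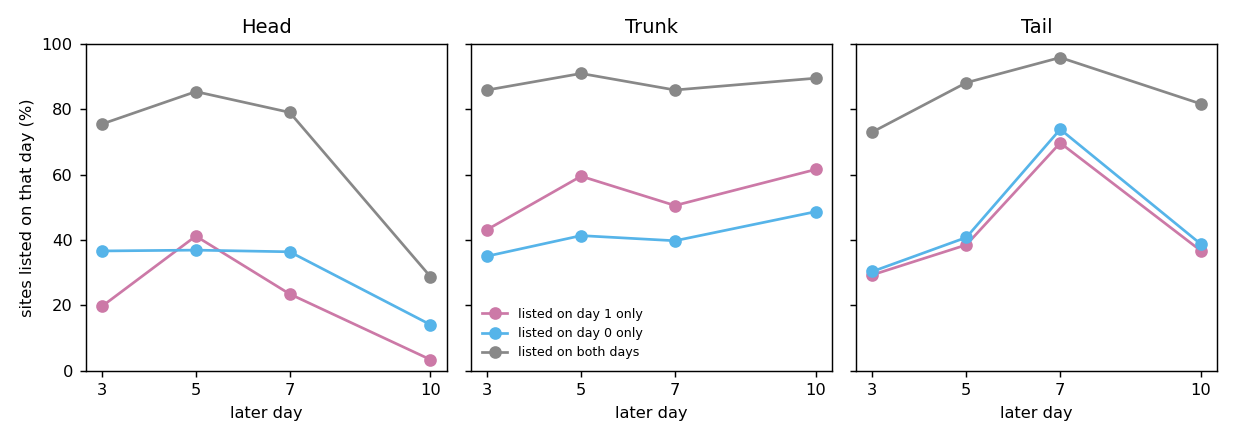
Share of sites (%, vertical) that the same tissue listed again on days 3, 5, 7 and 10 (horizontal), for sites on the day 1 list only, on the day 0 list only and on both. Sites on both early lists lie above both other sets on every later day in all 3 tissues, and all sets drop on day 10 in head.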

How the data were processed

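Per the file headers, each deposited table sets 1 tissue library beside the IVT control and gives 2 raw counts per ACA site and library, uncut reads and total reads. The authors' uncut fraction and m6A level, also a fraction, matched these counts in every row within 1e-09. In the headers of the control counts the letters fto stand next to IVT, and these counts were read as the IVT library's. Whether it had a further treatment is not settled, and the levels, though not the differences between days, rest on this reading. The submitters' processing notes name HISAT2 2.4.2, fastp 0.20.0 and FastQC, and the counting program, the assembly and the listing filter are not stated, so the filter was read from the values. Total depth is unknown beyond listed sites.

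Groups came from the tissue and day labels, paired by tissue, with 3 libraries a side. Uncut shares at sites with at least 10 reads were fitted with limma 3.58.1 (lmFit and eBayes, tissue as a block) in R 4.3.3. Sites without a cut read entered limma's Benjamini-Hochberg adjustment (threshold 0.05) with a p of 1. Fisher's exact tests and exact sign-flip permutation tests, both two-sided, used Python 3.11.15 and scipy 1.17.1, and intervals are 95% Wilson intervals. Both kinds of site test were run on simulated reads, drawn independently and without added spread between libraries. Such simulations cannot show how the tests behave where libraries vary beyond counting error.

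Alternatives varied the read minimum, the scale, the model, the block, the tissues required and the tissue pairs kept. The members and the rules were chosen with earlier results of these data known. Named sites were the 5 largest mean differences each way with the same sign in every tissue, the 3 largest Fisher calls per tissue and direction, every site called in at least 2 tissues, the 5 gained and the 5 lost in the most tissues, and the 3 contigs with the most of each.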

Additional observations from a re-analysis of the deposited data

Results flagged for a closer look

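In 3 library-level measures 1 tissue lay on the other side of 0 from both others, and with 1 library per tissue and day none of these differences between tissues was tested. Among 3 tissues, 1 stands alone by construction whenever the signs are not all the same. At sites on both lists with at least 10 reads on both days, the mean difference in uncut share, day 1 minus day 0, was -0.00794 in head, while it was 0.00909 in trunk and 0.00165 in tail. Which tissue stood apart depended on the read minimum, since tail was alone at 0.00258 with no minimum and trunk was alone at 0.0139 with at least 50 reads. The difference in median level over whole lists was -0.0229 in trunk, against 0.0165 in head and 0.00132 in tail. Over the sites on both lists of a tissue it was -0.0111, -0.00794 and 0 in these tissues, and trunk no longer stood apart. The log2 ratio of listed sites was -1.37 in tail, against 0.62 in head and 0.61 in trunk, and tail also lay alone over sites with at least 10 reads (-1.51) and over sites with at least 11 uncut control reads (-1.36). Reads at sites on both lists had median ratios of 0.342 in tail, 1.59 in head and 1.58 in trunk, at 10 or more reads on both days. Their part in the list sizes was not tested.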

How the results depend on the processing

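No setting gave a limma call in either direction, over read minimums of none, 10 and 50, all 3 tissues, the logit scale, a quasi-binomial model, no tissue block, all 18 libraries, adjustment over fitted sites only and each tissue pair left out. The smallest adjusted p by limma or the quasi-binomial model over these ran between 0.174 and 1. The sign of each small library-level mean depended on the setting. The mean difference in uncut share, 0.000933, was -0.00499 with no read minimum, -0.00251 at sites in all 3 tissues and -0.00214 with reads pooled over sites, and leaving out 1 tissue pair gave -0.00315 (without trunk) to 0.00537. For the median level, leaving out 1 pair gave -0.0108 to 0.00890 (without trunk). The mean log2 list size ratio was 0.10 over sites with at least 10 reads, -0.19 over sites with at least 11 uncut control reads (0.20 in head, against 0.62 over all head sites), and -0.38 to 0.61 (without tail) leaving out 1 pair. Sites gained in at least 2 tissues numbered 5 with at least 10 reads, 5 with under 11 uncut control reads, 1 in all 3 tissues, and 12 (without head) to 36 (without tail), with 13 without trunk, leaving out 1 pair. Sites lost numbered 2, 1 and 5 under the same settings, and 12 (without tail) to 51 (without head), with 43 without trunk. Gained minus lost was 3 with at least 10 reads, 4 with under 11 uncut control reads, and -39 to 24 (without tail) leaving out 1 pair. Stricter limits left fewer sites, and the cause of the other moves was not tested. Fisher calls with a difference of at least 0.1 numbered 5 in head and 3 in trunk, and other read minimums gave 12 to 15 calls for head, 6 to 9 for trunk and 0 for tail. Of the values recomputed under an alternative, 44 stayed the same, 14 moved and 10 changed sign. Same means a kept direction within the spread, or a count within 1.5 times of the first. The 44 include every limma count and every tail Fisher count, which were 0 under all settings and have no direction. Up to 86.8% of a list (tail, day 1) had under 10 reads.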

Other observations

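Reads per contig were set against the depth of the tissue. Each contig's reads were summed over its sites with at least 10 reads on both days, and the log2 ratio of day 1 over day 0 was taken relative to the median site of the tissue. Of 28 contigs measured in at least 2 tissues, 8 had a higher relative ratio in every tissue measured, 1 had a lower one in every tissue and 19 were mixed. Only 15 of the 28 were measured in 3 tissues. Among the 8, DN2661_c12_g1_i2, DN1930_c0_g2_i6, DN2794_c0_g1_i2 and DN171911_c1_g1_i1 were measured in 2, where fewer tissues can disagree. The contig DN16393_c0_g1_i2 stood at 0.44 in head, 0.40 in trunk and 2.13 in tail, and DN182285_c0_g1_i2 at 0.88, 0.68 and 1.05. The tail value of DN16393_c0_g1_i2 came from 1 site, with 15 reads at day 1 and 10 at day 0. The contig that was lower in every tissue was DN870_c17_g1_i2, at -0.59, -0.12 and -0.40. Most contigs thus moved in different directions in different tissues. These ratios have no test, and reads at listed sites measure a transcript only together with its cutting.

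The make-up of the reads differed between the days in tail. DN155747_c0_g1_i1 held 6.81% of reads at listed sites in tail at day 1 and 29.9% at day 0, and its share in tail ran between 6.81% and 33.6% on days 3 to 10. In head it held 19.2% at day 1 and 19.5% at day 0. DN678_c0_g2_i4 held 42.7% at day 1 and 32.6% at day 0 in head, 88.0% and 87.2% in trunk, and 64.8% and 46.9% in tail, so it was the leading contig of all 6 lists.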
